A study of Homo sapiens with 9 samples.

Results

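The genes described here are 10 genes of meiosis and of germ cells: DAZL, DDX4, MAEL, DMRT1, SYCP1, SYCP2, SYCP3, STAG3, SMC1B and HORMAD1. They were taken by symbol from a table of read counts with 56312 entries, and each symbol matched 1 entry. The samples were 9 RNA-seq libraries of HNES1, a human naive pluripotent stem cell line derived from an embryo, with a wild-type genotype in every library. Cells were collected on day 5 after withdrawal of the naive culture medium PXGL, on the way to a primed-like state. The group PROTAC (3 libraries) received UNC6852 at 2.5 µM, a degrader directed at EED. The group UNC (3 libraries) received UNC1999 at 1 µM, which blocks the catalytic subunits EZH1 and EZH2. The group DMSO (3 libraries) received the solvent alone. Treatment began the day before withdrawal and was renewed daily, and all 9 libraries share 1 cell line, so they show the response of a single line. Stock cultures were kept on mouse feeder cells and the experiment was done on Geltrex without them.

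EED and EZH2 are subunits of Polycomb repressive complex 2 (PRC2), which places a repressive methyl mark on histone H3. Meiosis is the pair of cell divisions that makes eggs and sperm. During its prophase, homologous chromosomes fold along a protein axis of meiotic cohesin and HORMA proteins, and the synaptonemal complex then zips the axes together. Outside the germ line many such genes are kept silent, in mouse and human cells, by DNA methylation and by a variant of Polycomb repressive complex 1 that contains MGA, MAX, E2F6 and L3MBTL2 and recognises E2F and E-box motifs.

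Libraries held 31651742 to 101081643 counts, and values are given as CPM, the counts scaled to library size with TMM factors. Of 10 core pluripotency markers, 9 were found and their summed level was 5235 to 5534 CPM in PROTAC, 5252 to 5652 CPM in UNC and 5004 to 5222 CPM in DMSO. Every PROTAC and UNC sum was above every DMSO sum. With the replicate number as a block (the paired fit described below), 1 of these 9 rose and 0 fell in PROTAC, and 2 rose and 0 fell in UNC. In the same fit 4 of 14 naive markers rose and 2 fell in PROTAC, and 4 rose and 2 fell in UNC. Of 12 primed markers, 1 rose and 1 fell in PROTAC and 2 rose and 3 fell in UNC. Over all genes that fit called 2.99% in PROTAC and 13.5% in UNC. By group alone edgeR called 0 of the 9 core markers in PROTAC and 0 in UNC, with 1 in each under an unadjusted p of 0.05 and DESeq2 0. It called 0 of the naive markers in PROTAC (5 with unadjusted p under 0.05, DESeq2 2). It called 0 of the primed markers there (2 with unadjusted p under 0.05, DESeq2 0). Over all genes 4.96% had an unadjusted p under 0.05 in PROTAC and 12.4% in UNC. In UNC edgeR called 2 naive markers higher and 1 primed marker lower, beside 0.719% of all genes called. The part of the cell state in the levels of the 10 genes was not tested. Of 12 primordial germ cell markers 10 passed the expression filter. The other 2 were near 0: the specification factor SOX17 had 45 counts over all libraries and the germ cell RNA-binding gene NANOS3 had 17. The 3 with the highest mean were DPPA3 (561 CPM), the laminin receptor subunit ITGA6 (198 CPM) and TFAP2C (115 CPM), all of which pluripotent cells also express. Transcripts of the PRC2 core subunits EED, EZH1 and SUZ12 passed the test in neither group against DMSO. EZH2 was called higher in UNC in the paired fit (log2 fold change 0.24, SE 0.0631, edgeR adjusted p = 0.00746), with an adjusted p of 0.302 by group alone.

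Promoters are shown for 4 of the genes: SYCP2, whose level was lower with both compounds, DMRT1, lower with UNC1999, SYCP3, the most abundant, and SYCP1, at the limit of detection. Each is the RefSeq window on GRCh38.p14 from 250 bases before to 50 bases after a start site, on the strand of the gene, 5′ to 3′. Capitals mark the E2F core TCCCGC or its reverse complement GCGGGA. They lie at chr20:59933588-59933887 (minus strand), chr9:841447-841746 (plus strand), chr12:101739413-101739712 (minus strand) and chr1:114854613-114854912 (plus strand).
SYCP2: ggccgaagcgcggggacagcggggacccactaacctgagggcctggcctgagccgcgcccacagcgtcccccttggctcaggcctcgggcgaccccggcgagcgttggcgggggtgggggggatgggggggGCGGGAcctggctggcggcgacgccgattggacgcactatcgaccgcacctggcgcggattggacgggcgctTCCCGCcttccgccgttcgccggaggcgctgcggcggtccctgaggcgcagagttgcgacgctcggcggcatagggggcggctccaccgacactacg
DMRT1: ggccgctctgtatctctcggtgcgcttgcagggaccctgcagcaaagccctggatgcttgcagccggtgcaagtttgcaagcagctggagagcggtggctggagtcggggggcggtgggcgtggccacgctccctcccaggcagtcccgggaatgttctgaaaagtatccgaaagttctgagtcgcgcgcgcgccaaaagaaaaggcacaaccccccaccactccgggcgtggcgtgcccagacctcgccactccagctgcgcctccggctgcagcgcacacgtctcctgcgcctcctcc
SYCP3: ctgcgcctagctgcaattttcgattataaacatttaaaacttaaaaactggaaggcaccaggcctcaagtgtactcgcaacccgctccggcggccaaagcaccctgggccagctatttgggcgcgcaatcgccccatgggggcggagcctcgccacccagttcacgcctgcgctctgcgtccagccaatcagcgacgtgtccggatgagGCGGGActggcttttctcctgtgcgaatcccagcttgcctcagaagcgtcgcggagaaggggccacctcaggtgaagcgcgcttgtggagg
SYCP1: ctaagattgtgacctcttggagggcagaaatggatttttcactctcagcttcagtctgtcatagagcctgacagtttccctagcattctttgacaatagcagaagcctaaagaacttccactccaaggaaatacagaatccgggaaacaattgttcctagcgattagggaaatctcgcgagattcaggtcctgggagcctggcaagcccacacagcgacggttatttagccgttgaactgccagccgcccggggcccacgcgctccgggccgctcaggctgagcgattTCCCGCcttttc

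Counting the start site as 0, the E2F core began at -119 and at -47 in SYCP2, at -41 in SYCP3 and at 38 in SYCP1. The DMRT1 window shown had no match, and a further DMRT1 start site had a match at -87. RefSeq windows were found for 9 of the 10 genes, all but HORMAD1, and there were 13 windows because DAZL, MAEL, DMRT1 and STAG3 have more than 1 start site. The E2F core was in 10 of the 13 windows and in 8 of the 9 genes, against 26.9% of 35116 windows of the same length over all genes. The E-box CACGTG, which is its own reverse complement, was in 4 windows of 3 genes (DAZL, MAEL and STAG3), against 7.26% of all windows. The windows of the STAG3 start sites overlap, and their E-box matches are the same site, at 23 from one start and -171 from the other. No match to one motif overlapped a match to the other. These windows were also rich in CpG: the median was 27 CpG per window, against 14 over all windows, with a range of 1 (DDX4) to 60 (MAEL). The only DDX4 window, chr5:55766635-55766934, lies inside the counted gene, which begins at 55738017. Both DAZL windows, chr3:16604741-16605040 and chr3:16605374-16605673, likewise lie inside the counted gene, which on the minus strand begins at 16670306. Sequences at those outer ends were not examined. Among windows with at least 20 CpG, 9 of 11 windows of these genes held the E2F core, against 50.4% of 14454 windows. The 4 windows with the E-box were among these 11, against 10.2% of the 14454 windows. A match describes the letters and is not evidence of binding.

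Transcripts of SYCP3 and STAG3 made up 90.7% of the 60366 counts of the 10 genes. SYCP3, a protein of the axial and lateral elements of the synaptonemal complex (chromosome 12, 101728648 to 101739472), had the highest level per length of exon, 13.3 CPM per kb on average over the 9 libraries. STAG3, the meiotic subunit of cohesin (chromosome 7, 100177563 to 100214387), had 4.52 CPM per kb. Ranked by mean CPM among the 24187 genes tested, SYCP3 was at percentile 81.7 and STAG3 at percentile 77.0. For scale, among cohesin subunits of dividing somatic cells, STAG2 had 36.2, SMC1A 18.8 and STAG1 1.55 CPM per kb, so STAG3 lay between its paralogs STAG2 and STAG1. In GENCODE 29, STAG3 shares 1606 of its 8583 exonic bases with PVRIG on the same strand and 1163 with CASTOR3 on the opposite strand. By the coordinates given with the counts, STAG3 overlaps CASTOR3P but not PVRIG. The annotation used for counting is not given, so reads of those bases cannot be assigned to one gene.

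The other 8 genes were low. The order by mean level per length was HORMAD1 (0.739 CPM per kb), MAEL (0.491), SYCP2 (0.393), DDX4 (0.288), DMRT1 (0.283), DAZL (0.160), SMC1B (0.111) and SYCP1 (0.00625). SYCP3 was above STAG3, and STAG3 above HORMAD1, with no overlap of the ranges over libraries. From HORMAD1 down to SMC1B each gene overlapped the next in its range over libraries, and SMC1B was above SYCP1 without overlap. Summed over the 10 genes the level was 101 ± 1.31 CPM in PROTAC, 97.3 ± 2.71 CPM in UNC and 98.4 ± 1.37 CPM in DMSO (SD, n = 3). Without SYCP3 and STAG3 the sum over 8 genes was 8.83 ± 1.22 CPM in PROTAC, 8.33 ± 1.49 CPM in UNC and 9.73 ± 0.766 CPM in DMSO, and the ranges overlapped.

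**Figure D1:**
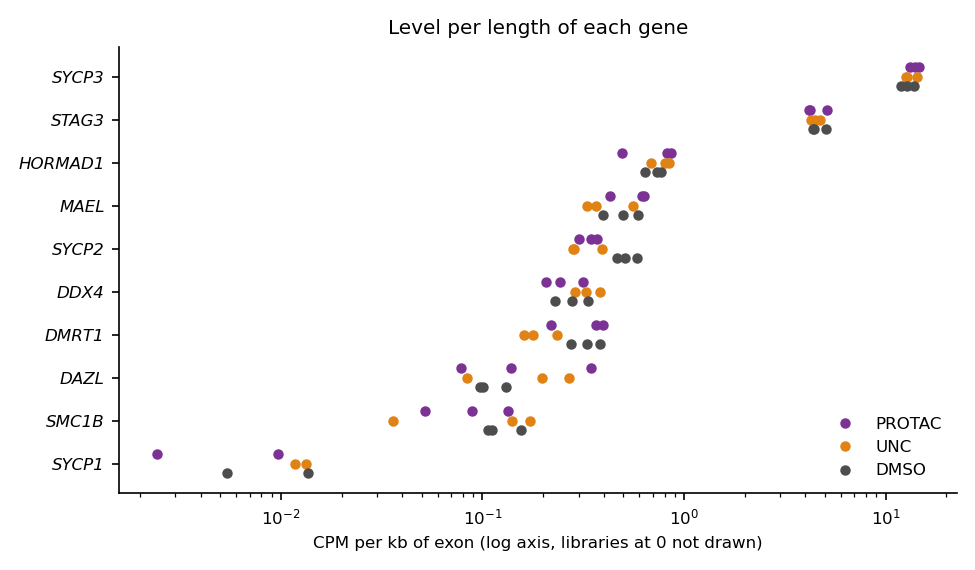
Level of each gene in CPM per kb of exon on a log axis, 1 point per library, with PROTAC, UNC and DMSO on separate lines from top to bottom for each gene. SYCP3 averaged 13.3 and STAG3 4.52 CPM per kb, and the other 8 genes averaged under 0.8 CPM per kb. The 3 libraries with no SYCP1 count are not drawn.

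Of the 10 genes, 9 passed the expression filter and were tested, while SYCP1 was not. In the fit by group alone, edgeR's quasi-likelihood test with Benjamini-Hochberg adjustment over 24187 genes called 0 of the 9 in UNC against DMSO, where 0.719% of all genes were called. Without adjustment 2 of the 9 had p under 0.05, beside 12.4% of all genes, and DESeq2 called 1 of the 9 and 801 genes in all. It also called 0 of the 9 in PROTAC against DMSO, where 0% of all genes were called (4.96% with unadjusted p under 0.05), with 1 of the 9 under 0.05 before adjustment and 0 called by DESeq2, which called 23 genes in all. In the paired fit, which adds the replicate number as a block, SYCP2 and DMRT1 were called lower in UNC (2 of 9), where 6.46% of all genes were called lower and 13.5% in either direction. SYCP2 alone was called lower in PROTAC (1 of 9), where 0.984% of all genes were called lower and 2.99% in either direction. The median log2 fold change of the 9 genes by group alone was 0.00 in UNC and -0.04 in PROTAC, beside -0.01 over all genes in both comparisons. Both comparisons share the DMSO libraries.

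SYCP2, the partner of SYCP3 in the lateral element (chromosome 20, 59863564 to 59933655, minus strand), was lower with each compound. Its level was 2.40, 2.24 and 1.96 CPM in PROTAC 1, 2 and 3, 2.54, 1.81 and 1.83 CPM in UNC 1, 2 and 3, and 3.79, 3.30 and 2.99 CPM in DMSO 1, 2 and 3. Every PROTAC and every UNC library was below every DMSO library, a pattern seen downward in 5.44% of all genes for PROTAC and in 9.07% for UNC. In bulk RNA, fewer cells that express a gene and less RNA per cell cannot be told apart.

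For UNC against DMSO the log2 fold change of SYCP2 by group alone was -0.70 (SE 0.185, edgeR adjusted p = 0.113). In the paired fit it was -0.70 (SE 0.146, adjusted p = 0.000852), and SYCP2 was lower in 3 of 3 pairs of libraries with the same number, with log2 ratios of -0.58, -0.87 and -0.71. The paired call was made under each of 17 settings of the paired fit, with adjusted p from 0.000252 to 0.0391. By group alone it was made under 3 of 19 settings: DESeq2 (adjusted p = 0.0193), no expression filter (0.0468) and without UNC 1 (0.0466).

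For PROTAC against DMSO the log2 fold change of SYCP2 by group alone was -0.60 (SE 0.186, edgeR adjusted p = 0.938). In the paired fit it was -0.61 (SE 0.147, adjusted p = 0.0134), with log2 ratios of -0.66, -0.56 and -0.61 in the 3 pairs. The 3 ratios lay close together, at 62 to 278 counts per library, and whether they were closer than counting error allows was not tested. By group alone SYCP2 was called under 0 of 19 settings, with a lowest adjusted p of 0.358 (DESeq2). The paired call was made under 11 of 17 settings. It was lost without PROTAC 1 (adjusted p = 0.124), DMSO 2 (0.0829) or DMSO 3 (0.0748), and without all libraries numbered 1 (0.0728), 2 (0.120) or 3 (0.0988). PROTAC and UNC differed by 0.09 on the log2 scale, with a 95% interval of -0.28 to 0.46 and an adjusted p of 1.00, at unequal doses.

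**Figure D2:**
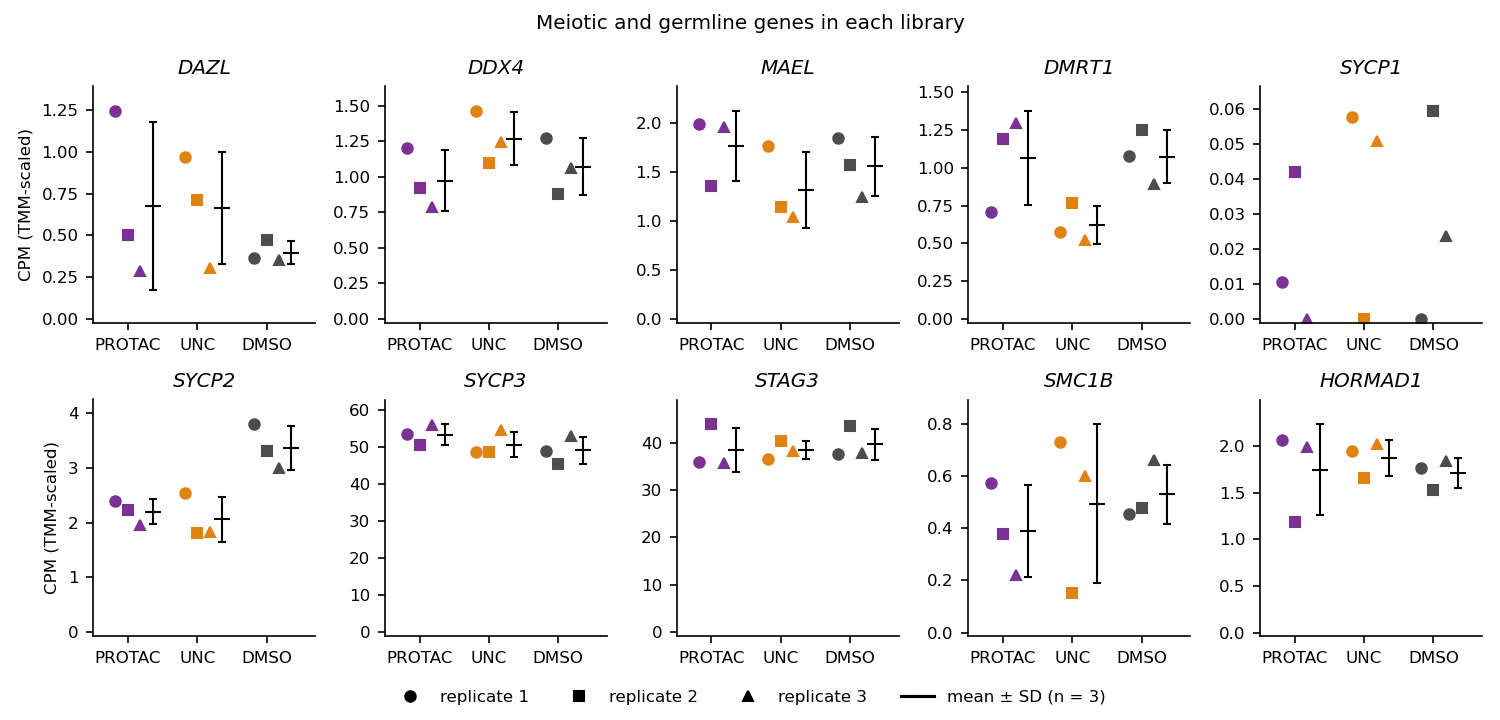
Level of each gene in CPM in every library, with PROTAC, UNC and DMSO from left to right, the replicate number as the marker shape, and the mean and SD of 3 libraries beside each group. The scales differ between genes, and no mean is drawn for SYCP1, which had 0 counts in 3 libraries. SYCP2 lies at 1.81 to 2.54 CPM in the treated libraries and at 2.99 to 3.79 CPM in DMSO.

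SYCP3 passed no test. It was at 53.3 ± 2.79 CPM in PROTAC, 50.6 ± 3.36 CPM in UNC and 49.1 ± 3.72 CPM in DMSO (SD, n = 3). The single libraries were at 53.4, 50.4 and 56.0 CPM in PROTAC, 48.7, 48.6 and 54.5 CPM in UNC, and 48.9, 45.4 and 52.8 CPM in DMSO, and the groups overlapped. Its log2 fold change was 0.12 in PROTAC (95% interval -0.04 to 0.28, edgeR adjusted p = 0.993) and 0.05 in UNC (-0.11 to 0.20, adjusted p = 0.888). PROTAC was above DMSO in 3 of 3 pairs, with log2 ratios of 0.13, 0.15 and 0.08, and the paired log2 fold change was 0.12 (SE 0.0548, unadjusted p = 0.0337, adjusted p = 0.258). SYCP3 shares 566 of its 3829 exonic bases with CHPT1, an enzyme of phospholipid synthesis on the opposite strand. CHPT1 rose in UNC in the paired fit (log2 fold change 0.26, SE 0.0657, adjusted p = 0.00529), and since the strand setting of the counting is not given in the sources used here, reads of the shared bases cannot be assigned to one gene.

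SYCP1, the transverse filament that bridges the paired axes (chromosome 1, 114854863 to 114995370), was at the limit of detection. It had 1, 3 and 0 counts in PROTAC 1, 2 and 3, 6, 0 and 4 counts in UNC 1, 2 and 3, and 0, 5 and 1 counts in DMSO 1, 2 and 3, 20 in all. No group stood apart in these counts. A count of 0 allows a level of up to 0.0948 CPM in PROTAC 3, 0.0734 CPM in UNC 2 and 0.0471 CPM in DMSO 1 (3 counts, counting error only). SYCP2 and SYCP3, in contrast, had at least 62 counts in every library.

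The meiotic cohesin genes and HORMAD1 passed no test. STAG3 was at 38.5 ± 4.63 CPM in PROTAC, 38.4 ± 1.92 CPM in UNC and 39.6 ± 3.31 CPM in DMSO (SD, n = 3), with log2 fold changes of -0.04 in PROTAC (95% interval -0.23 to 0.15) and -0.05 in UNC (-0.23 to 0.14). The groups overlapped. STAG3 overlaps CASTOR3P and 2 entries without a symbol, and its partial copies of the STAG3L family can take some of its reads. STAG3L4, one such copy, was at 12.0 ± 0.779 CPM in PROTAC, 13.1 ± 1.55 CPM in UNC and 11.9 ± 0.697 CPM in DMSO.

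SMC1B, the meiotic counterpart of SMC1A in the cohesin ring (chromosome 22, 45344063 to 45413619), had 6 to 76 counts per library. Its mean CPM was at percentile 21.9 of the genes tested. It was at 0.571, 0.378 and 0.221 CPM in PROTAC 1, 2 and 3, 0.731, 0.153 and 0.597 CPM in UNC 1, 2 and 3, and 0.455, 0.475 and 0.660 CPM in DMSO 1, 2 and 3. The groups overlapped, and the log2 fold change had a 95% interval of -1.25 to 0.57 in PROTAC and -0.99 to 0.99 in UNC.

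HORMAD1, a HORMA-domain protein of the unsynapsed axis (chromosome 1, 150698060 to 150720895), was at 2.06, 1.19 and 1.99 CPM in PROTAC 1, 2 and 3, 1.94, 1.66 and 2.02 CPM in UNC 1, 2 and 3, and 1.76, 1.53 and 1.84 CPM in DMSO 1, 2 and 3. It was higher than DMSO in 3 of 3 UNC pairs and in 2 of 3 PROTAC pairs, by small amounts that the test did not call. The log2 fold change was 0.03 in PROTAC (95% interval -0.42 to 0.47, edgeR adjusted p = 0.999) and 0.15 in UNC (-0.29 to 0.58, adjusted p = 0.865). Its paralog HORMAD2 had 3 counts in PROTAC, 18 in UNC and 16 in DMSO and was not tested.

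DMRT1, a DM-domain transcription factor of the germ line and of Sertoli cells that in mouse controls when germ cells enter meiosis (chromosome 9, 841690 to 969090), was lower with UNC1999. Its level was 0.708, 1.19 and 1.29 CPM in PROTAC 1, 2 and 3, 0.577, 0.765 and 0.521 CPM in UNC 1, 2 and 3, and 1.08, 1.25 and 0.896 CPM in DMSO 1, 2 and 3. Every UNC library was below every DMSO library, a pattern seen downward in 9.07% of all genes. The PROTAC libraries lay on both sides of the DMSO libraries. The counts behind these values were 30 to 105 per library.

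For UNC against DMSO the log2 fold change of DMRT1 by group alone was -0.83 (SE 0.285, edgeR adjusted p = 0.229). In the paired fit it was -0.81 (SE 0.249, adjusted p = 0.0249), with log2 ratios of -0.90, -0.71 and -0.78 in the 3 pairs. By group alone DMRT1 was called under 0 of 19 settings, with a lowest adjusted p of 0.145 (DESeq2). The paired call was made under 9 of 17 settings. It was lost without UNC 1 (adjusted p = 0.0607), UNC 2 (0.0855), UNC 3 (0.146), DMSO 1 (0.185) or DMSO 2 (0.0694), and without all libraries numbered 1 (0.0846), 2 (0.163) or 3 (0.0865).

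For PROTAC against DMSO the log2 fold change of DMRT1 was -0.05 (95% interval -0.60 to 0.49, edgeR adjusted p = 0.999), and the ratios of the 3 pairs, -0.60, -0.07 and 0.53, went both ways. PROTAC was above UNC in 3 of 3 pairs (log2 fold change 0.77, SE 0.288, adjusted p = 0.832 by group alone, 0.140 in the paired fit), so the test did not separate the compounds. The related genes DMRT2 and DMRT3 passed no test against DMSO. DMRT2 was at 1.70 ± 0.119 CPM in PROTAC, 1.41 ± 0.0869 CPM in UNC and 1.97 ± 0.555 CPM in DMSO, with a log2 fold change of -0.48 in UNC (adjusted p = 0.378 by group alone, 0.0826 paired).

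Trophoblast markers were examined in the same libraries. Of 14 such markers 12 were tested. The paired fit called 2 of them lower and 0 higher in PROTAC, where 0.984% of all genes were called lower. It called 7 lower and 1 higher in UNC, where 6.46% of all genes were called lower. By group alone edgeR called 0 in PROTAC (0 with unadjusted p under 0.05, DESeq2 0), where 0% of all genes were called. In UNC it called 1 lower, GATA3 (7 with unadjusted p under 0.05, DESeq2 2), where 0.719% of all genes were called. The shares of all genes with unadjusted p under 0.05 by group alone were 4.96% in PROTAC and 12.4% in UNC. GATA3, a trophoblast transcription factor, had a log2 fold change of -1.52 in UNC (paired, adjusted p = 8.73e-07). The summed level of the 14 markers was 24.8 to 58.5 CPM in PROTAC, 19.0 to 39.9 CPM in UNC and 28.1 to 62.6 CPM in DMSO. The trophoblast factor ELF5 had 4 counts over all libraries and VGLL1 had 22. Of 10 markers of the somatic cells of testis and ovary, 9 were tested and 1 fell in UNC in the paired fit (11.1%, against 13.5% of all genes). It was the ovarian factor FOXL2 (log2 fold change -0.98, adjusted p = 0.000515). The summed level of the 10 markers was 20.6 to 21.1 CPM in PROTAC, 17.8 to 20.3 CPM in UNC and 20.2 to 23.9 CPM in DMSO. The part of these cell types in the levels of SYCP2 and DMRT1 was not tested.

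**Figure D3:**
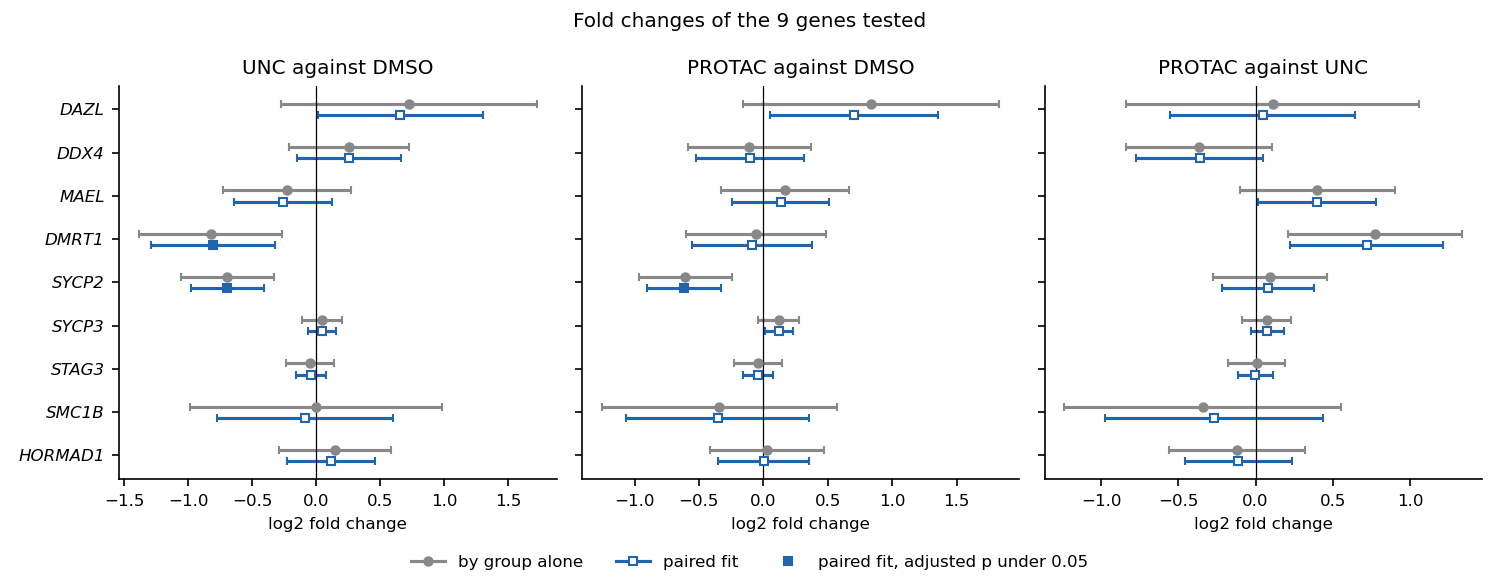
Log2 fold change of the 9 genes tested in UNC against DMSO, PROTAC against DMSO and PROTAC against UNC, by group alone (circles) and in the paired fit (squares), with bars of 1.96 SE on each side. Filled squares mark the calls of the paired fit: SYCP2 and DMRT1 in UNC and SYCP2 in PROTAC.

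DAZL, an RNA-binding protein that licenses germ cells for meiosis in mouse (chromosome 3, 16586792 to 16670306), varied widely between replicates. Its level was 1.25, 0.504 and 0.284 CPM in PROTAC 1, 2 and 3, 0.972, 0.714 and 0.305 CPM in UNC 1, 2 and 3, and 0.364, 0.475 and 0.353 CPM in DMSO 1, 2 and 3. PROTAC 1 and UNC 1 were high, with 118 and 101 counts, against 24 counts in DMSO 1, and the groups overlapped. The log2 ratio to DMSO in number 1 was 1.78 for PROTAC and 1.42 for UNC, and in number 3 it was -0.32 for PROTAC and -0.21 for UNC.

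By group alone the log2 fold change of DAZL was 0.84 in PROTAC (95% interval -0.16 to 1.83, edgeR adjusted p = 0.993) and 0.73 in UNC (-0.27 to 1.72, adjusted p = 0.641). Without all libraries numbered 1 it was -0.03 in PROTAC and 0.18 in UNC. The 3 libraries numbered 1 also stood together over all genes, with scores of 30.2 (PROTAC), 35.7 (UNC) and 41.2 (DMSO) on the first principal component, which held 26.7% of the variance, while the other 6 libraries were at -50.0 to 5.82. DAZL has related genes elsewhere in the genome, and whether its reads were shared with them was not tested.

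**Figure D4:**
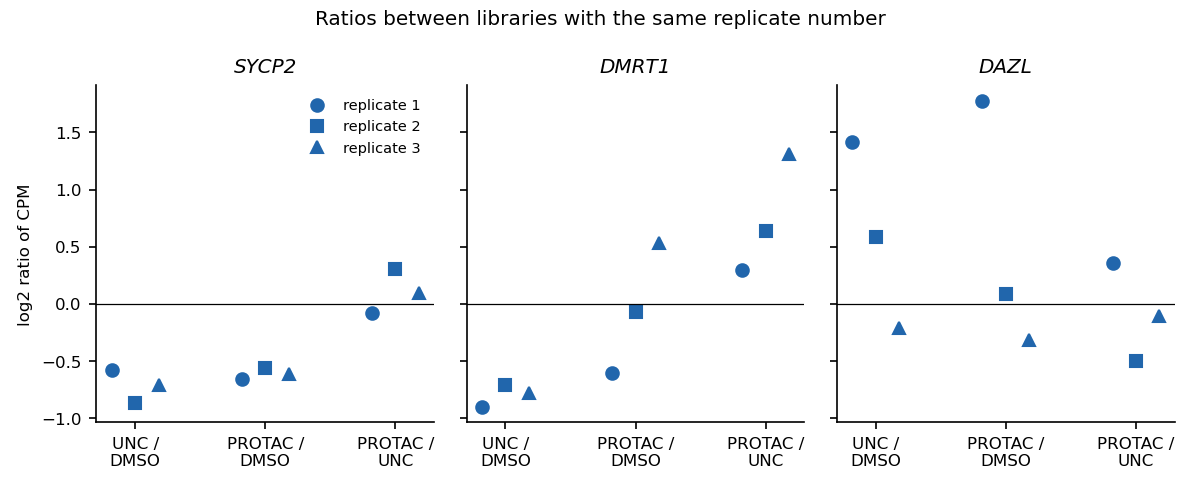
Log2 ratio of CPM between libraries with the same replicate number for SYCP2, DMRT1 and DAZL, 1 point per pair, with 0 as the line of no difference. The 3 pairs of SYCP2 lie at -0.87 to -0.56 in both comparisons with DMSO, the 3 of DMRT1 at -0.90 to -0.71 in UNC, and those of DAZL on both sides of 0.

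DDX4, the germ cell RNA helicase also called VASA (chromosome 5, 55738017 to 55817157), was at 1.20, 0.923 and 0.789 CPM in PROTAC 1, 2 and 3, 1.46, 1.10 and 1.25 CPM in UNC 1, 2 and 3, and 1.27, 0.879 and 1.06 CPM in DMSO 1, 2 and 3. The groups overlapped, although UNC was above DMSO in 3 of 3 pairs. The log2 fold change was -0.11 in PROTAC (95% interval -0.59 to 0.37, edgeR adjusted p = 0.993) and 0.26 in UNC (-0.21 to 0.73, adjusted p = 0.744).

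MAEL, a protein of the piRNA pathway, which silences transposons in germ cells (chromosome 1, 166975582 to 167022214), was at 1.99, 1.36 and 1.96 CPM in PROTAC 1, 2 and 3, 1.76, 1.15 and 1.04 CPM in UNC 1, 2 and 3, and 1.85, 1.57 and 1.25 CPM in DMSO 1, 2 and 3. The groups overlapped. The log2 fold change was 0.17 in PROTAC (95% interval -0.33 to 0.67, edgeR adjusted p = 0.993) and -0.23 in UNC (-0.73 to 0.27, adjusted p = 0.796), and UNC was below DMSO in 3 of 3 pairs.

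Between the compounds, at their unequal doses, 0 of the 9 genes were called in PROTAC against UNC by edgeR by group alone (0.00827% of all genes) and 0 in the paired fit (2.91% of all genes). DESeq2 also called 0. Without adjustment 1 gene by group alone, DMRT1, had p under 0.05, beside 4.7% of all genes. With the block 2 did, DMRT1 and MAEL, beside 13% of all genes. The median log2 fold change of the 9 genes was 0.07, beside -0.01 over all genes.

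Other genes of meiosis and the germ line were examined to set these 10 beside their pathways. The 6 lists held 94 further genes, of which 91 were found and 76 tested. Of the 91, 56 had a mean of at least 1 CPM and 21 a mean of at least 10 CPM, while 4 had no count in any library: SPO11, the nuclease that starts meiotic recombination, its partner REC114, the telomere attachment gene TERB2 and the piRNA pathway gene ASZ1. By group alone edgeR called 0 of the 76 in each comparison with DMSO, and DESeq2 called 0 in each. Before adjustment 3 of the 76 in PROTAC and 6 in UNC had p under 0.05, beside 4.96% and 12.4% of all genes. Pairing gave 1 that fell in PROTAC (1.32% of 76, against 2.99% of all genes), and 2 that rose and 3 that fell in UNC (6.58% of 76, against 13.5% of all genes). The difference between these shares was not tested. The median log2 fold change by group alone was -0.01 in each comparison.

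Of 7 further synaptonemal complex genes tested, 0 were called in the paired fit in PROTAC or UNC, against 2.99% and 13.5% of all genes. By group alone 1 in PROTAC and 0 in UNC had an unadjusted p under 0.05, and DESeq2 called 0. Over all genes the shares under 0.05 were 4.96% and 12.4%. Of 5 further cohesin and axis genes, the paired fit called 1 higher in UNC (20%, against 13.5% of all genes) and 0 in PROTAC. It was SGO2, a shugoshin that protects centromeric cohesin (37.3 CPM in UNC against 32.2 CPM in DMSO, log2 fold change 0.21, adjusted p = 0.0144). The meiotic kleisin REC8 had the highest mean of that list, 60.0 CPM, and its log2 fold change in UNC was -0.04 by group alone (adjusted p = 0.945). Of 22 recombination genes, 1 fell in each group in the paired fit (4.55%, against 2.99% of all genes in PROTAC and 13.5% in UNC). It was MSH5, which stabilises crossover intermediates, with 37.8 CPM in PROTAC against 45.3 CPM in DMSO (paired log2 fold change -0.26, adjusted p = 0.0183) and 39.6 CPM in UNC (-0.19, adjusted p = 0.0368). Every PROTAC and UNC library was below every DMSO library for MSH5. This pattern was seen downward in 5.44% of all genes for PROTAC and in 9.07% for UNC. Both comparisons share the DMSO libraries. By group alone MSH5 had an adjusted p of 0.938 in PROTAC and 0.372 in UNC.

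Of 7 further meiotic entry genes tested, 0 were called in the paired fit in PROTAC or UNC, against 2.99% and 13.5% of all genes. By group alone 0 had an unadjusted p under 0.05 in either, and DESeq2 called 0. Of 23 further piRNA pathway genes, the paired fit called 1 higher and 1 lower in UNC (8.7%, against 13.5% of all genes) and 0 in PROTAC. TDRD3, a Tudor protein that acts with a topoisomerase in many tissues, rose in UNC (log2 fold change 0.26, adjusted p = 0.00722). TEX15, which in mouse works in meiotic recombination and transposon silencing, fell there (-0.36, adjusted p = 0.0194). The paired fit of PROTAC against UNC called 8.7% of the 23, against 2.91% of all genes. It called TEX15 higher (0.54, adjusted p = 0.00145) and GTSF1, a piRNA cofactor, lower (-0.33, adjusted p = 0.00479). By group alone neither was called, with an adjusted p of 1.00 for TEX15 and 0.710 for GTSF1. Of 15 further germ cell identity genes, the paired fit called 1 lower in UNC (6.67%, against 13.5% of all genes) and 0 in PROTAC. It was SOHLH2, a helix-loop-helix factor of early germ cells (log2 fold change -0.32, adjusted p = 0.0239). DPPA4 and DPPA3, the most abundant of that list at 1076 and 561 CPM, are also genes of pluripotent cells, and neither was called in UNC.

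**Figure D5:**
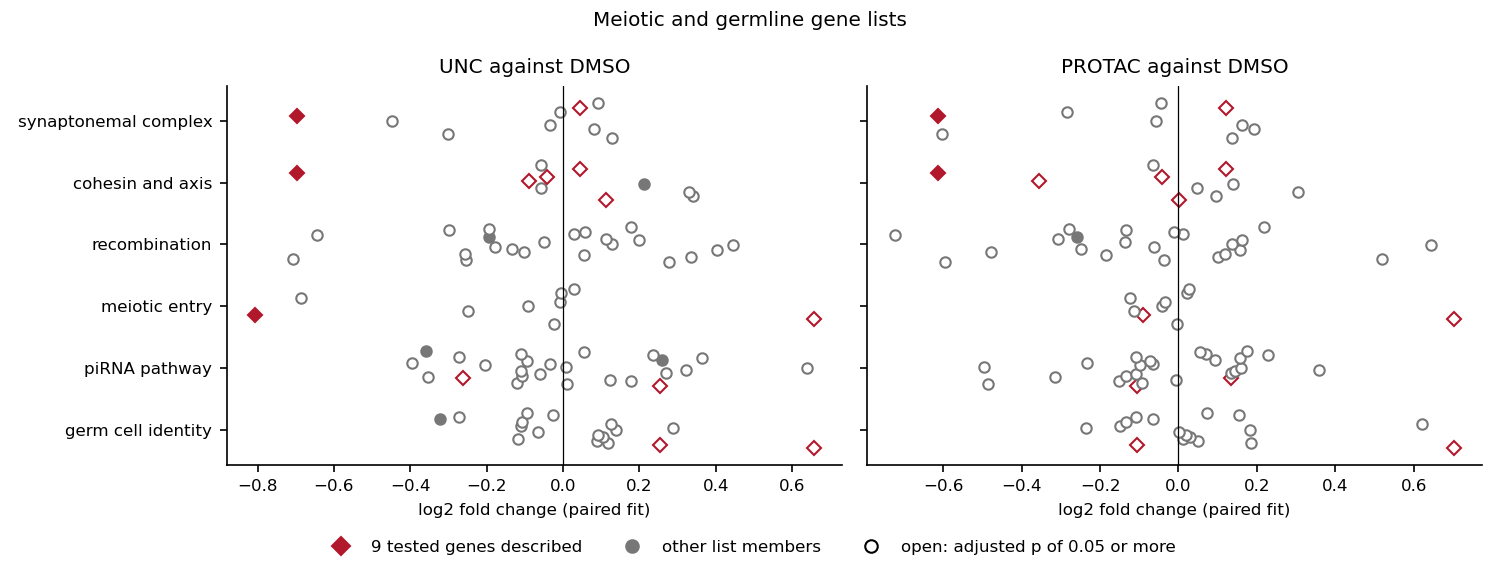
Paired log2 fold change of each tested gene of 6 meiotic and germline lists in UNC against DMSO and PROTAC against DMSO, 1 point per gene. Diamonds are the 9 tested genes described above, circles are the other list members, and filled symbols passed an adjusted p of 0.05. Points lie on both sides of 0 in each list, and a gene in more than 1 list is drawn in each.

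Of 24 genes of the repressors of germline genes, all were tested. By group alone edgeR called 0 in PROTAC (1 with unadjusted p under 0.05, DESeq2 0) and 0 in UNC (2 with unadjusted p under 0.05, DESeq2 1). The shares of all genes with unadjusted p under 0.05 were 4.96% in PROTAC and 12.4% in UNC. The paired fit called 0 in PROTAC, and 2 rose and 2 fell in UNC, 16.7% against 13.5% of all genes. Those that rose were the histone deacetylase HDAC2 (log2 fold change 0.22, adjusted p = 0.00232) and the ubiquitin ligase RNF2 (0.19, adjusted p = 0.0298). The larger of the decreases was that of ZBTB16, a zinc finger factor of spermatogonial stem cells (-0.54, adjusted p = 0.0161). The DNA methyltransferase DNMT3B was the most abundant of this list at 1840 CPM, and its log2 fold change in UNC was 0.01.

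Of the 10 primordial germ cell markers tested, the paired fit called 0 in PROTAC, against 2.99% of all genes, while 1 rose and 2 fell in UNC, against 13.5% of all genes called. By group alone edgeR called 0 in PROTAC (1 with unadjusted p under 0.05) and 0 in UNC (4 with unadjusted p under 0.05), and DESeq2 called 0 in each. Over all genes 4.96% in PROTAC and 12.4% in UNC had an unadjusted p under 0.05. PRDM1, a transcriptional repressor of early human germ cells, rose (log2 fold change 0.49, adjusted p = 0.000118). ARID5B, a DNA-binding cofactor (-0.88, adjusted p = 0.0164), and the surface protein PDPN (-0.22, adjusted p = 0.00614) fell. The summed level of the 12 markers was 976 to 1159 CPM in PROTAC, 991 to 1010 CPM in UNC and 986 to 1080 CPM in DMSO, and the groups overlapped.

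Among 17961 tested genes with a symbol, those whose log2 CPM followed SYCP3 most closely over the 9 libraries were NFATC3 (Pearson r 0.953), F3 (0.950) and SPATA18 (0.937). For STAG3 they were RIT1 (0.961), SHD (0.939) and NDUFA2 (0.929). These are the largest of many correlations over 9 points that share their libraries, and they are given as a description.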

How the data were processed

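RNA was extracted from 3 biological replicates per group on day 5, and libraries were made with ribosomal RNA depletion per the labels' protocols, although the molecule field of the labels names polyA RNA. The authors deposited raw read counts per gene for the 9 libraries. The submitters' processing notes name HISAT2 2.2.1, Trim Galore 0.6.10 and the build GRCh38. How reads were counted, with which annotation and strand setting, is not given in the sources used here. Counts were not changed before testing.

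Genes were kept with edgeR's filterByExpr by group (24187 of 56312), scaled by TMM and tested with edgeR 4.0.16 (R 4.3.3, limma 3.58.1), using the quasi-likelihood F test with robust estimation, two-sided, on all 9 libraries by group alone. P-values were adjusted by Benjamini-Hochberg over all genes tested, with a threshold of 0.05. SE is the log2 fold change divided by the square root of F, and intervals are 1.96 SE on each side. The script was tested on simulated data. P-values measure the spread between these libraries. Common dispersion corresponded to a coefficient of variation of 13.2% without and 6.09% with the block.

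The paired fit adds the replicate number as a block. The number comes from the sample titles, which do not say that a number marks a shared experiment. Deviations from the group means correlated between libraries of the same number by 0.106 to 0.472 (9 pairs) and between those of different numbers by -0.324 to 0.0753 (18 pairs), so numbers were taken to pair the libraries. Deviations within a group sum to 0, so values above 0 in one range push the other below 0, and the ranges are not independent. On the first principal component the libraries numbered 1 stood apart, while those numbered 2 and 3 were mixed. Depth was 31651742 to 101081643 counts per library, and limits for a count of 0 are 3 counts and cover counting error only.

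The 10 genes and all gene lists were chosen with earlier results of these data known. Of the lists, genes were named if among the 3 with the largest change of those called in either fit or the 3 with the highest mean CPM. Exonic lengths were unions of GENCODE 29 exons, matched by gene ID for 10 of 10 genes, and promoters were RefSeq windows on GRCh38.p14. Alternatives were the block, RLE scaling, library size only, DESeq2 1.42.0, no filter, a filter of 1 CPM in 3 libraries, the 6 libraries compared alone, and leaving out each library or each replicate number.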

Additional observations from a re-analysis of the deposited data

How the results depend on the processing

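The pairing matters most: with the replicate block the genes called numbered 3265 in UNC against DMSO, 724 in PROTAC against DMSO and 703 in PROTAC against UNC, beside 174, 0 and 2 by group alone. The blocked fit called 2, 1 and 0 of the 9 genes in these comparisons, also under RLE scaling, library size only, DESeq2 and no filter. With the block, all genes called were 3378, 775 and 704 under RLE scaling, 3082, 538 and 687 by library size only, 3064, 852 and 627 in DESeq2, and 3290, 943 and 831 with no filter. Without the block they were 801, 23 and 129 in DESeq2 and 834, 72 and 246 with no filter. DESeq2 and no filter each called 1 of the 9 in UNC against DMSO. The 6 libraries alone gave 73 genes in UNC against DMSO and 0 in PROTAC against UNC, where RLE scaling and the 1 CPM filter each gave 1. Leaving out libraries, over both fits, gave 0 to 3794 genes in UNC against DMSO, 0 to 639 in PROTAC against DMSO and 0 to 924 in PROTAC against UNC, and 0 to 2, 0 to 1 and 0 to 0 of the 9 genes. The cause of these differences was not tested.

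Signs turned only for changes that no fit called. STAG3 in PROTAC against UNC was -0.000865 with the block, -4.08e-05 under RLE scaling, and -0.00727, -0.00722 and -0.00316 with the block under RLE scaling, DESeq2 and no filter. SMC1B in UNC against DMSO was 0.00512 under RLE scaling and 0.000736 in the 6 libraries, and HORMAD1 in PROTAC against DMSO was -0.0252 with the block and library size only. Leaving out libraries gave, in UNC against DMSO, -0.0102 to 0.102 for SYCP3, -0.0848 to 0.0249 for STAG3 and -0.557 to 0.350 for SMC1B. In PROTAC against DMSO it gave -0.0726 to 1.19 for DAZL, -0.303 to 0.0434 for DDX4, -0.0563 to 0.331 for MAEL, -0.327 to 0.192 for DMRT1, -0.148 to 0.0315 for STAG3, -0.813 to 0.0303 for SMC1B and -0.149 to 0.249 for HORMAD1. In PROTAC against UNC it gave -0.690 to 0.582 for DAZL, -0.00939 to 0.284 for SYCP2, -0.100 to 0.0568 for STAG3, -0.730 to 0.0695 for SMC1B and -0.285 to 0.105 for HORMAD1. DAZL and SMC1B did not pass the 1 CPM filter and have no value there. SYCP1, with 20 counts, was left out by the expression filter and has no value here.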
